A study of Mus musculus with 20 samples.

Results

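Histone modifiers add or remove methyl and acetyl groups on the histones around which DNA is wound, and chromatin remodellers use ATP to slide or evict nucleosomes. The genes described here are the named families of these enzymes and of their readers among the mRNAs of maturing mouse oocytes: 60 of the 8114 genes listed in either of 2 deposited tables, one of ribosome-bound mRNA and one of total RNA. They were taken by symbol from the genes listed, with no threshold on a measured value beyond the listing itself. The families were chosen with earlier results of these data known. The prefixes were Kdm (lysine demethylases, 9 genes), Kmt (lysine methyltransferases, 5) and Setd (SET domain proteins, 8), Kat followed by a digit (lysine acetyltransferases, 6), Hdac (histone deacetylases, 4), Brd followed by a digit (bromodomain proteins, 7), Smarc (SWI/SNF-related remodeller proteins, 10) and Chd followed by a digit (chromodomain remodellers, 11). Each table listed 59 of them and 58 were in both, with Chd3os in the ribosome-bound table alone and Chd2 in the total RNA table alone. Symbols are not functions: the Setd prefix takes in Setdb1 and Setdb2, SETD3 is best known as an actin methyltransferase, and Chd3os is no remodeller, since its gene ID is annotated as Rnf227, a protein-coding gene beside Chd3 on the other strand.

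The samples were oocytes of C57BL/6 females, Zp3-Cre+ RiboTag and 3 weeks old, which carry an HA-tagged ribosomal protein. Zp3-Cre acts in growing oocytes, so the tag marks oocyte ribosomes. The females received 5 IU of PMSG, and 44 h later the cells around the oocytes were stripped off and the oocytes were held in prophase I by 1 µM cilostamide, a phosphodiesterase inhibitor. After transfer to medium without cilostamide, 200 oocytes per sample were collected in prophase I at 0 h, in prometaphase I at 2 h (early), 4 h (mid) and 6 h (late), and in metaphase I at 8 h. Ribosome-bound mRNA was pulled down through the tag and total RNA was taken as the input, with 2 libraries per group, 10 groups and 20 libraries in all. The Cre, the tag, the hormone and the arrest were common to every group, and no oocytes without the tag are compared here. One label field describes the total RNA samples as ribosome-bound too; the titles and the series design, where they are the input, were followed. Nothing in the labels says that the 2 libraries of a group came from separate animals or cultures, so a p-value measures the spread between these libraries, which may be technical.

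Depth, inferred from the size of the smallest step between values, was 27571236 to 51714900 reads per library. Of 11 oocyte markers, 11 were listed on ribosomes and 10 in total RNA. Of 12 granulosa and cumulus markers, 3 were listed on ribosomes (Cyp19a1, Fshr and Serpine2), with summed values of 463 to 476 scaled CPM at 8 h, against 139.5 to 169 at 0 h. In total RNA 5 of the 12 were listed, at 374 to 445 at 8 h, against 234 to 292 at 0 h. Of 9 markers of blood, stroma and endothelium, 2 (Pecam1 and Tek) were listed in each table. The summed oocyte markers on ribosomes stood at 21374 to 24785 at 8 h, against 40525 to 48665 at 0 h. In total RNA the oocyte markers summed to 14248 to 15087 at 8 h, against 13923 to 14662 at 0 h. The part of these shifts in the changes described below was not tested. Ribosome-bound replicate 1 of 4 h stood apart on the principal component holding 12.5% of the variance, at 35.2 with the next library at 4.88. In total RNA the 2 libraries of 8 h lay far apart on the component holding 14.2% of the variance, at -20.2 and 25.0. Every total RNA result at 8 h, and every comparison of ribosome-bound with total RNA at 8 h, rests on that pair. Values are scaled CPM, which are shares of a library, and with pooled oocytes a transcript present in fewer oocytes and a transcript lower in each oocyte cannot be told apart.

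In a fully grown oocyte transcription is off, so these proteins are made from stored mRNA, and an mRNA can move onto or off ribosomes without any new RNA. As meiosis resumes, chromosomes condense and histones of the mouse oocyte lose much of their acetylation, with deacetylases and acetyltransferases on opposite sides of that balance. Many stored mRNAs that become translated at this stage carry a cytoplasmic polyadenylation element (CPE) near the end of their 3′ UTR, a short uridine-rich run bound by CPEB1. It is the element best known to link the sequence of an oocyte mRNA to its time of translation.

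The CPE was searched as TTTTAT or TTTTAAT, on the sense strand, in the last 100 bases of 1 annotated 3′ UTR per gene. It was present in 16 of the 59 members on ribosomes (27.1%), against 1523 of 7218 genes of the same table with a 3′ UTR (21.1%). The 5 members below carried it and were higher on ribosomes at 8 h than at 0 h, and the windows are shown because they place the element in called genes, Kdm6a and Smarcad1 with the largest rises among them. Kat8 and Hdac2, with large falls, held no match in the last 100 bases, though Hdac2 held 1 in the last 200. Capitals mark the element.
Kdm6a (chrX:18279899-18279928, plus strand): ctttaaagggagTTTTAATacaggcttttc
Smarcad1 (chr6:65115995-65116024, plus strand): ctccctgtaataTTTTATtatgtcttgggt
Kdm1a (chr4:136550540-136550569, minus strand): aactttaaaataaTTTTATatgaaaattta
Chd1 (chr17:15772564-15772593, plus strand): actaaccttccaTTTTAATaataaacaata
Setdb1 (chr3:95323553-95323582, minus strand): gacacagtcatgTTTTATttaacctttaat
Setd4 carried it and was lower on ribosomes at 8 h.
Setd4 (chr16:93583460-93583489, minus strand): aggttggaataaacagacTTTTATatgaaa
Sequences and coordinates are from mm10 with the GENCODE vM21 annotation, written 5′ to 3′ along the mRNA with T for U. The element began 26 bases before the annotated end in Kdm6a, 55 in Smarcad1, 17 in Kdm1a (whose last 100 bases hold 2 elements), 35 in Chd1 and 46 in Setdb1. In Setd4 it began 12 bases before the end. The poly(A) signal, searched as AATAAA or ATTAAA, began after the element shown in Smarcad1 (35 bases before the end), Chd1 (7) and Setdb1 (20). In Kdm1a (35) and Setd4 (23) the signal began before the element shown, and Kdm6a held no such signal in its last 100 bases. Among members that rose, 5 of 14 held the element (35.7%), close to the 36.5% of all genes that rose. Among members that fell, 2 of 8 did (25%), against 9.56% of all genes that fell. A match to these letters is not evidence of a working element, and its absence says only that these letters are not in the window.

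Between prophase I and metaphase I, 4 of the 8 families held both rises and falls on ribosomes, and the other 4 held calls in 1 direction. That split depended on the fit. With each library corrected for the length and GC content of transcripts, the Chd and Setd families held 3 falls each and no rise. The Setd family held no rise either in a fit of 0 h and 8 h alone. The H3K27 demethylase Kdm6a and the remodeller Smarcad1 had the largest rises on ribosomes, and the acetyltransferase Kat8, the SET domain gene Setd4 and the deacetylase Hdac2 the largest falls. At 8 h against 0 h, 22 of 59 members (37.3%) had a limma adjusted p under 0.05, 14 higher and 8 lower. Of all 7543 genes in the table, 42.1% passed, 20.2% higher and 21.8% lower, a share of the same order as that of the members. The median log2 change of members was -0.07, and that of all genes was -0.06. Demethylases held 5 rises and no fall among 9, with a median of 0.55. Kmt genes held 2 rises among 5 (median 0.31) and bromodomain genes 1 rise among 7 (median 0.20). Both directions occurred in the Kat family (2 rises and 2 falls among 6, median -0.41), the Smarc family (2 and 2 among 10, median -0.32), the Setd family (1 rise and 2 falls among 8, median -0.48) and the Chd family (1 and 1 among 10, median -0.21). The Hdac family had 1 fall among 4 (median -0.28). Over the alternative settings the medians ran between 0.13 and 0.78 in the Kmt family, -0.88 and -0.12 in the Hdac family, -0.53 and -0.20 in the Kat family, -0.60 and -0.31 in the Setd family, -0.43 and -0.11 in the Smarc family, -0.29 and -0.09 in the Chd family and 0.10 and 0.37 among bromodomain genes, all with 1 sign. The Hdac value of -0.88 came from a filter on a mean of at least 20, which dropped Hdac4 and left 3 genes.

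These counts rest on 2 libraries a group. Without 8 h replicate 2, fewer members and fewer of all genes passed. No Kmt gene was among them (median 0.13), and Chd1l, Kat5, Kat6b, Kdm3b, Kdm6b, Kmt2e, Kmt5a, Setd3 and Setdb1 did not pass. Correcting each library for the length and GC content of transcripts again gave 22 calls, of which 15 were shared: Chd1, Kat5, Kdm7a, Kmt2e, Setdb1, Smarca5 and Smarcd2 no longer passed. Over all genes 2751 of 7532 passed with that correction.

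**Figure D1:**
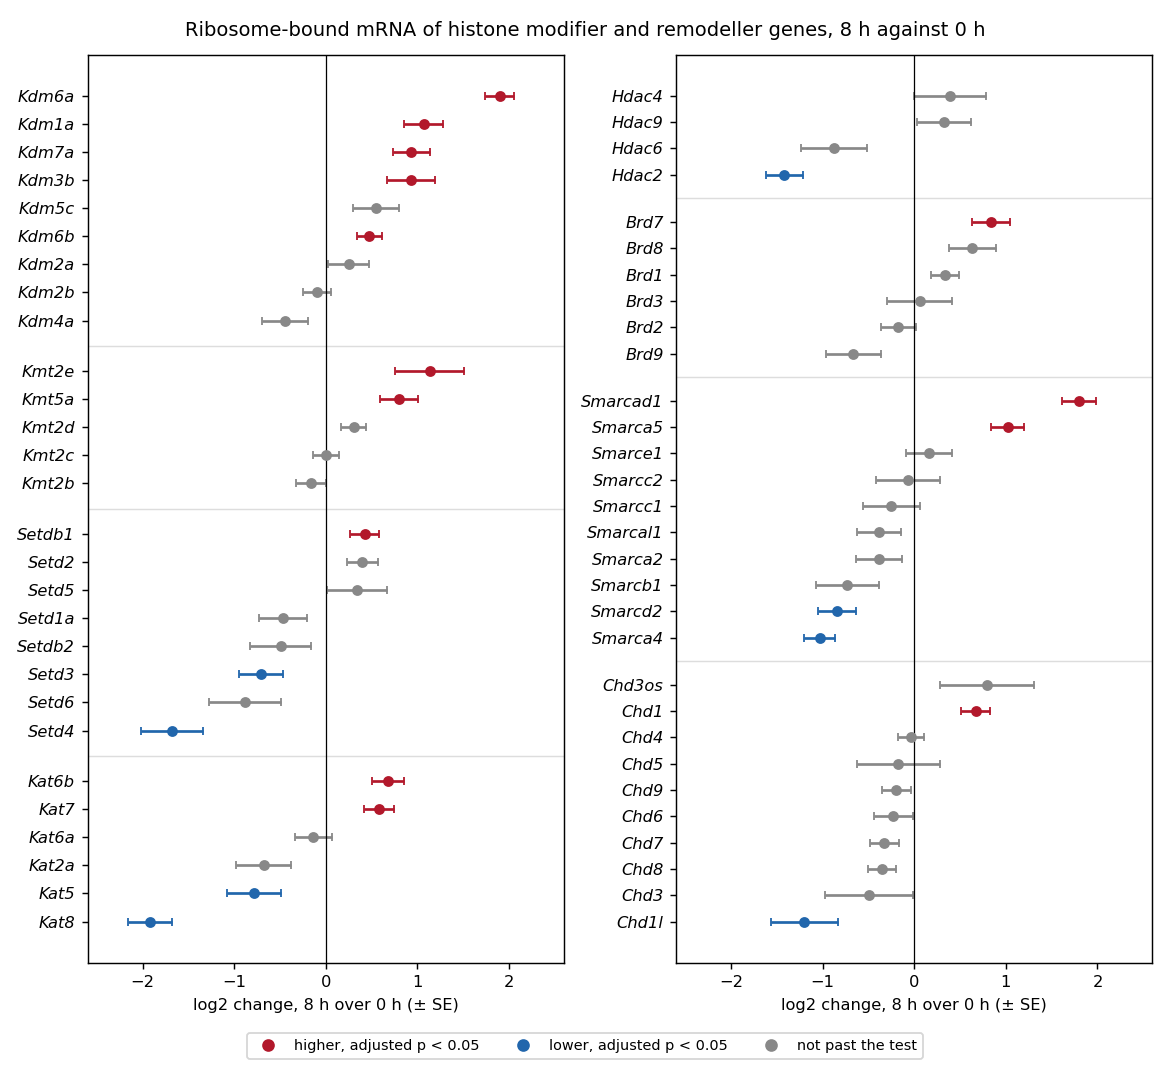
Log2 change of ribosome-bound mRNA at 8 h over 0 h (x axis) for 58 of the 59 members in that table, grouped by family and ordered within each; points are limma estimates and bars their standard errors, from 2 libraries per time. Kdm6a (1.90) and Smarcad1 (1.80) lie farthest right, Kat8 (-1.92), Setd4 (-1.68) and Hdac2 (-1.42) farthest left, and all 5 demethylase calls lie to the right of 0.

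Among the demethylases, Kdm6a removes methyl groups from H3K27 and belongs to the KMT2C and KMT2D complexes (ENSMUSG00000037369.16, mm10 chromosome X, 18162575 to 18279936, plus strand). On ribosomes it stood at 321 and 268 scaled CPM at 0 h, 321 and 399 at 2 h, 521 and 554 at 4 h, 799.6 and 866 at 6 h and 981 and 1224 at 8 h. The libraries of 4, 6 and 8 h all lay above those of 0 h, and both 8 h libraries lay above all others. The mean was 1103 ± 172 scaled CPM at 8 h, against 295 ± 37.1 at 0 h (SD, n = 2), a log2 change of 1.90 ± 0.15 (limma SE, adjusted p = 7.74e-08). The ± beside a log2 change is its limma standard error throughout. Its relative Kdm6b, also an H3K27 demethylase, had 539 and 587 scaled CPM at 8 h, against 438 and 373 at 0 h. That log2 change of 0.48 ± 0.14 (adjusted p = 0.00917) was small beside that of Kdm6a, and the call was lost without 0 h replicate 2.

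Kdm1a (LSD1), which removes methyl groups from H3K4 as part of CoREST and is needed in the mouse oocyte, was at 44.8 and 39.7 scaled CPM at 0 h, 46.8 and 53.5 at 2 h, 57.9 and 57.7 at 4 h, 66.4 and 76.3 at 6 h and 92.0 and 87.0 at 8 h (ENSMUSG00000036940.15, mm10 chromosome 4, 136550540 to 136602723, minus strand). Each later pair of libraries lay above the pair before it, and at 8 h the log2 change was 1.07 ± 0.21 (adjusted p = 0.000716). Kdm7a, a demethylase of H3K9 and H3K27, had 121 and 119.9 scaled CPM at 8 h, against 52.5 and 74.6 at 0 h (log2 change 0.94 ± 0.20, adjusted p = 0.0013). With the length and GC correction its change was 0.29, short of the threshold. Kdm3b, an H3K9 demethylase, had 69.9 and 82.7 scaled CPM at 8 h, against 38.7 and 40.2 at 0 h (log2 change 0.93 ± 0.26, adjusted p = 0.00856).

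The other 4 demethylases did not pass. Kdm5c, which acts on H3K4, had a log2 change of 0.55 ± 0.25 with an adjusted p of 0.0848. Kdm2a and Kdm2b, which bind unmethylated CpG and act on H3K36, had 0.25 and -0.09. Kdm4a, an H3K9 and H3K36 demethylase supplied by the oocyte to the embryo, had 46.2 and 36.9 scaled CPM at 8 h, against 55.4 and 57.7 at 0 h (log2 change -0.45 ± 0.26, adjusted p = 0.171). Over the alternative settings the family median at 8 h ran between 0.41 and 0.75, with 3 to 5 rises and no fall.

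Of the Kmt genes, Kmt5a (SET8), the enzyme for a single methyl group on H4K20, a mark tied to mitotic chromosomes, was at 138 and 163 scaled CPM at 8 h, against 83.3 and 88.7 at 0 h. Its log2 change was 0.80 ± 0.21 (adjusted p = 0.00522). Kmt2e, a SET and PHD finger protein, had 24.4 and 29.2 scaled CPM at 8 h, against 13.6 and 9.93 at 0 h, with a log2 change of 1.14 ± 0.38 (adjusted p = 0.0215). Per kilobase of transcript Kmt2e was the lowest member on ribosomes at 0 h (1.6 scaled CPM), and leaving out 0 h replicate 2 or either 8 h library ended its call. The 3 other MLL-type enzymes were not called. Kmt2b, the main H3K4 methyltransferase of the growing mouse oocyte, had 230.2 and 279 scaled CPM at 8 h, against 298 and 269 at 0 h, and those libraries overlapped. Kmt2c had 1564 and 1970.0 scaled CPM at 8 h, against 1969 and 1569 at 0 h, also overlapping, with a log2 change of -0.00 ± 0.14. Kmt2d had 1062 and 1363 scaled CPM at 8 h, against 999.6 and 947 at 0 h (log2 change 0.31 ± 0.14, adjusted p = 0.0807), and passed at 0.78 with the length and GC correction.

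In the Setd family, Setd4 (ENSMUSG00000022948.14, mm10 chromosome 16, 93583457 to 93604063, minus strand) was at 42.8 and 65.2 scaled CPM at 0 h, 35.1 and 59.9 at 2 h, 26.1 and 45.2 at 4 h, 22.3 and 30.5 at 6 h and 15.3 and 16.4 at 8 h on ribosomes. Both libraries of 8 h lay below all earlier ones, at a log2 change of -1.68 ± 0.34 (adjusted p = 0.000801). SETD4 is a lysine methyltransferase, described in mammals with histone H4 as a substrate. Setd3, the actin methyltransferase, had 45.3 and 35.6 scaled CPM at 8 h, against 58.2 and 74.9 at 0 h (log2 change -0.70 ± 0.24, adjusted p = 0.0255), and lost its call with either 0 h replicate 2 (-0.53) or 8 h replicate 2 (-0.53) left out. Setdb1, the H3K9 methyltransferase that silences retroelements, had 317 and 362 scaled CPM at 8 h, against 240.1 and 266 at 0 h (log2 change 0.42 ± 0.16, adjusted p = 0.0372). Its call was lost in 4 of 12 alternative fits, among them those without 0 h replicate 1 (0.35) and without 8 h replicate 2 (0.33). Setd2, which places H3K36 trimethylation and is needed for the methylome of the mouse oocyte, had 376 and 569.7 scaled CPM at 8 h, against 376 and 327 at 0 h. The 8 h libraries of Setd2 differed widely, and its change of 0.40 ± 0.17 had an adjusted p of 0.0727. Setd1a, Setd5, Setd6 and Setdb2 did not pass, with log2 changes of -0.47, 0.34, -0.88 and -0.49.

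The acetyltransferases moved apart. Kat8 (MOF), which acetylates H4K16 (ENSMUSG00000030801.10, mm10 chromosome 7, 127912516 to 127925837, plus strand), was at 129 and 117 scaled CPM at 0 h, 62.2 and 69.9 at 2 h, 51.4 and 60.4 at 4 h, 38.3 and 43.2 at 6 h and 38.4 and 26.1 at 8 h. At 2 h both libraries lay below both of 0 h, though that comparison did not pass (log2 change -0.89 ± 0.24, adjusted p = 0.0678), and at 8 h the log2 change was -1.92 ± 0.24 (adjusted p = 7.19e-06). Kat5 (TIP60), the catalytic subunit of the NuA4 complex, had 24.8 and 23.1 scaled CPM at 8 h, against 41.9 and 42.1 at 0 h (log2 change -0.79 ± 0.30, adjusted p = 0.0423). That call was lost when any 1 library of 0 h or 8 h was left out, and the change was -0.39 with the length and GC correction.

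Kat6b (MORF) and Kat7 (HBO1), which acetylate histone H3 in complexes with BRPF scaffolds, went the other way. Kat6b had 346 and 538 scaled CPM at 8 h, against 270.2 and 267 at 0 h (log2 change 0.68 ± 0.18, adjusted p = 0.0048). One 8 h library carried much of it: without 8 h replicate 2 the change was 0.36 and not called. Kat7 had 160.0 and 151 scaled CPM at 8 h, against 104 and 103 at 0 h, and its log2 change was 0.58 ± 0.16 (adjusted p = 0.0085). Kat6a (MOZ), close kin of Kat6b, had -0.14 and overlapping libraries. Kat2a (GCN5), the acetyltransferase of SAGA, had 63.6 and 64.3 scaled CPM at 8 h, against 155 and 68.6 at 0 h, where the 2 libraries of 0 h were far apart. Its change of -0.68 ± 0.30 did not pass (adjusted p = 0.0768).

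Hdac2 was the deacetylase with the clearest change. HDAC2 is a class I enzyme that works in the NuRD, SIN3 and CoREST complexes, and with HDAC1 it deacetylates histones in the mouse oocyte (ENSMUSG00000019777.16, mm10 chromosome 10, 36974544 to 37001889, plus strand). On ribosomes it was at 139 and 189.9 scaled CPM at 0 h, 101 and 92.7 at 2 h, 77.7 and 86.5 at 4 h, 78.2 and 71.6 at 6 h and 63.0 and 57.3 at 8 h. The later libraries all lay below both 0 h libraries, with most of the drop in place by 2 h, although the 2 h comparison itself did not pass (log2 change -0.74 ± 0.20, adjusted p = 0.0702). At 8 h the log2 change was -1.42 ± 0.20 (adjusted p = 2.95e-05). Neither Hdac1 nor Hdac3 was in the tables used here. Hdac6, the tubulin deacetylase, was low, at 15.9 and 9.41 scaled CPM at 8 h, against 19.1 and 28.5 at 0 h, and did not pass (log2 change -0.88 ± 0.36, adjusted p = 0.0569). The class IIa genes Hdac4 (0.39) and Hdac9 (0.32) had overlapping libraries.

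Bromodomain proteins bind acetylated lysine. Brd7, a subunit of the PBAF remodeller, was the sole call, at 119 and 97.6 scaled CPM at 8 h, against 60.8 and 59.6 at 0 h (log2 change 0.83 ± 0.21, adjusted p = 0.00366). Brd9, of the non-canonical BAF complex, had -0.67 with an adjusted p of 0.0818. Brd8, of the TIP60 complex, had 0.64 (adjusted p = 0.0585). Brd1, a scaffold of the HBO1 complex, had 0.33, and the BET genes Brd2 and Brd3 had -0.18 and 0.06.

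Among the Smarc ATPases, Smarcad1 and Smarca5 rose and Smarca4 fell. Smarcad1, a remodeller associated with heterochromatin and DNA end resection (ENSMUSG00000029920.9, mm10 chromosome 6, 65042583 to 65116061, plus strand), was at 48.8 and 60.7 scaled CPM at 0 h, 72.7 and 72.4 at 2 h, 145 and 131 at 4 h, 191 and 153 at 6 h and 186 and 197 at 8 h. Every library of 4, 6 and 8 h lay above every library of 0 and 2 h, and the log2 change at 8 h was 1.80 ± 0.19 (adjusted p = 1.2e-06). Smarca5 (SNF2H), the ISWI ATPase (ENSMUSG00000031715.14, mm10 chromosome 8, 80698507 to 80739497, minus strand), was at 122 and 155 scaled CPM at 0 h, 145 and 136 at 2 h, 229 and 168 at 4 h, 268 and 280.1 at 6 h and 262 and 297 at 8 h. Its log2 change was 1.02 ± 0.18 at 8 h (adjusted p = 0.000243), and 0.40 with the length and GC correction, which ended the call.

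Smarca4 (BRG1), the ATPase of BAF complexes and a maternal-effect gene in the mouse (ENSMUSG00000032187.16, mm10 chromosome 9, 21616169 to 21704230, plus strand), was at 304 and 309.7 scaled CPM at 0 h, 250.1 and 240.4 at 2 h, 215 and 246 at 4 h, 212 and 177 at 6 h and 131 and 170.3 at 8 h. Both 8 h libraries lay below every earlier library, at a log2 change of -1.03 ± 0.17 (adjusted p = 0.000113). The alternative BAF ATPase Smarca2 (BRM) had 73.1 and 118 scaled CPM at 8 h, against 139.8 and 106 at 0 h, overlapping (log2 change -0.39 ± 0.25). Of the BAF core and accessory subunits, Smarcd2 fell, with 58.4 and 83.2 scaled CPM at 8 h, against 121 and 132 at 0 h (log2 change -0.85 ± 0.21, adjusted p = 0.00327). It was not called without 8 h replicate 1 (-0.60) or with the length and GC correction (-0.48). Smarcb1 (-0.73), Smarcc1 (-0.25), Smarcc2 (-0.07), Smarce1 (0.16) and the annealing helicase Smarcal1 (-0.38) did not pass.

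**Figure D2:**
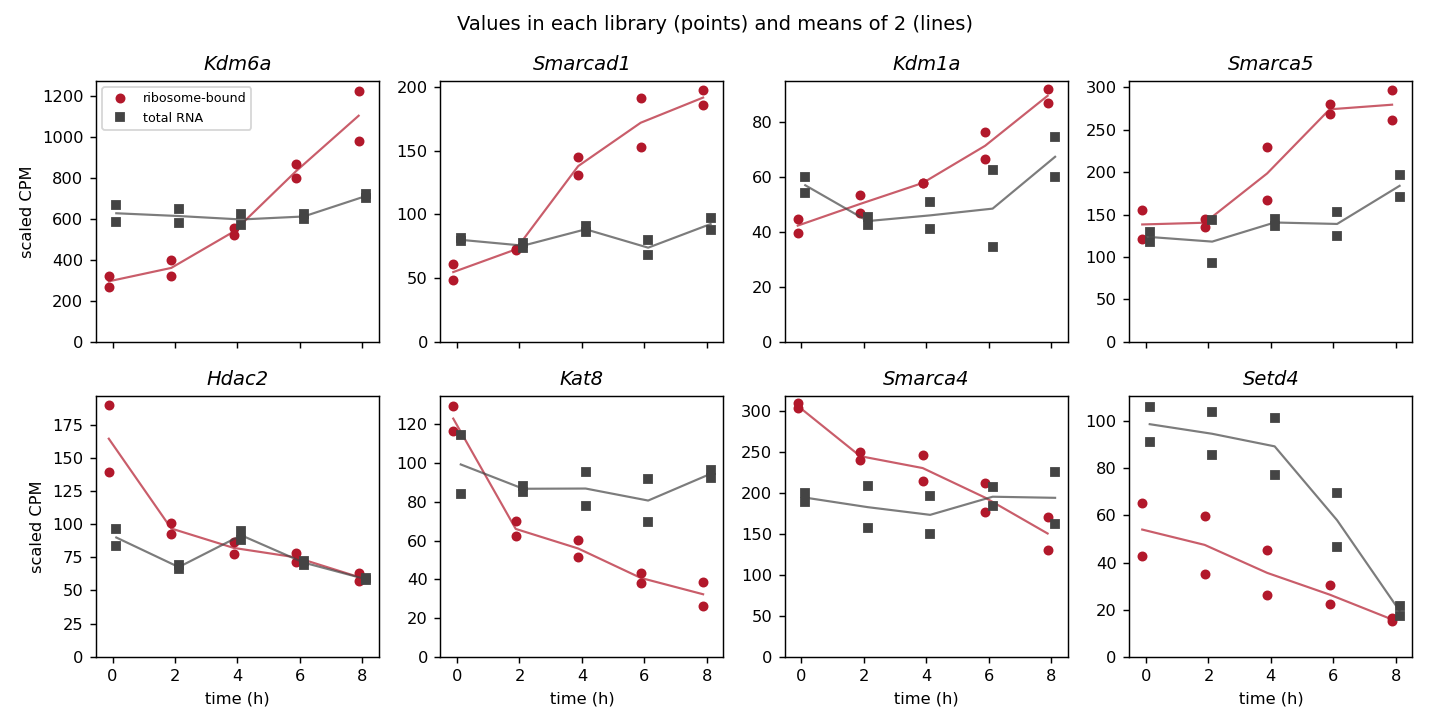
Scaled CPM (y axis, from 0, a different range in each panel) against hours after release (x axis) for 8 members, with 1 point per library, ribosome-bound mRNA as circles and total RNA as squares, and lines through the means of 2. Ribosome-bound Kdm6a, Smarcad1, Kdm1a and Smarca5 climb while Hdac2, Kat8, Smarca4 and Setd4 decline. Total RNA of Setd4 declines too, and that of Hdac2 is lower at 8 h than at 0 h but was not called. Total RNA of Smarca5 is higher at 8 h than at 0 h and was not called either.

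In the Chd family, Chd1, a remodeller that reads H3K4 trimethylation, was at 196 and 214 scaled CPM at 8 h, against 129 and 127 at 0 h. Its log2 change was 0.67 ± 0.16 (adjusted p = 0.00243), and 0.21 and not called with the length and GC correction. Chd1l (ALC1), a remodeller activated by poly(ADP-ribose), was at 21.8 and 15.6 scaled CPM at 8 h, against 33.3 and 57.5 at 0 h (log2 change -1.20 ± 0.37, adjusted p = 0.0132). The 0 h libraries of Chd1l were far apart, and without 0 h replicate 2 its change was -0.82 and not called. Chd4, the ATPase of NuRD, was at 481 and 631 scaled CPM at 8 h, against 547 and 582 at 0 h. Its log2 change of -0.04 ± 0.14 turned positive, to 0.03, once libraries were centred on their medians. Chd5 to Chd9 and Chd3 lay between -0.49 (Chd3) and -0.18 (Chd5), none called. Chd3os was at 10.5 and 6.89 scaled CPM at 8 h, against 2.63 and 7.34 at 0 h and was not called (adjusted p = 0.226).

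The changes built up over time. At 2 h no member passed in limma, against 1.47% of all genes. At an unadjusted p under 0.05 there were 9 of 59 members, beside 17.2% of all genes. At 4 h 10 members passed (6 higher, 4 lower), against 15.7% of all genes, 9.16% higher and 6.56% lower. Smarcad1 (1.33), Kdm6a (0.87), Brd7 (0.74), Kdm7a (0.70), Kat7 (0.65) and Chd1 (0.59) were higher by the log2 changes given, and Chd1l (-1.20), Kat8 (-1.13), Kat2a (-1.11) and Hdac2 (-0.98) were lower. Without 4 h replicate 1, the library that stood apart, fewer members and fewer of all genes passed. Brd7 (0.52), Chd1l (-0.79), Kat2a (-0.82), Kat7 and Kdm7a did not. Kat2a was also -0.53 and not called without 0 h replicate 1.

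At 6 h 20 members passed (12 higher, 8 lower), against 27.9% of all genes, 14.6% higher and 13.3% lower. The leading changes were Smarcad1 (1.63), Kdm6a (1.50) and Kmt2e (1.46) upward, and Kat8 (-1.57), Kat5 (-1.31) and Hdac2 (-1.11) downward. Leaving out either 6 h library, or 0 h replicate 2, lowered the 6 h count of members. The count over all genes of the table was lower too in each of these fits. Kat2a and Brd8, called at 6 h (-1.08 and 0.88), were not called at 8 h. The demethylase median stood at 0.23, 0.31, 0.50 and 0.55 at 2, 4, 6 and 8 h, and the Kat median at -0.11, -0.26, -0.47 and -0.41. All times share the same 0 h libraries, so these values are not independent of each other.

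**Figure D3:**
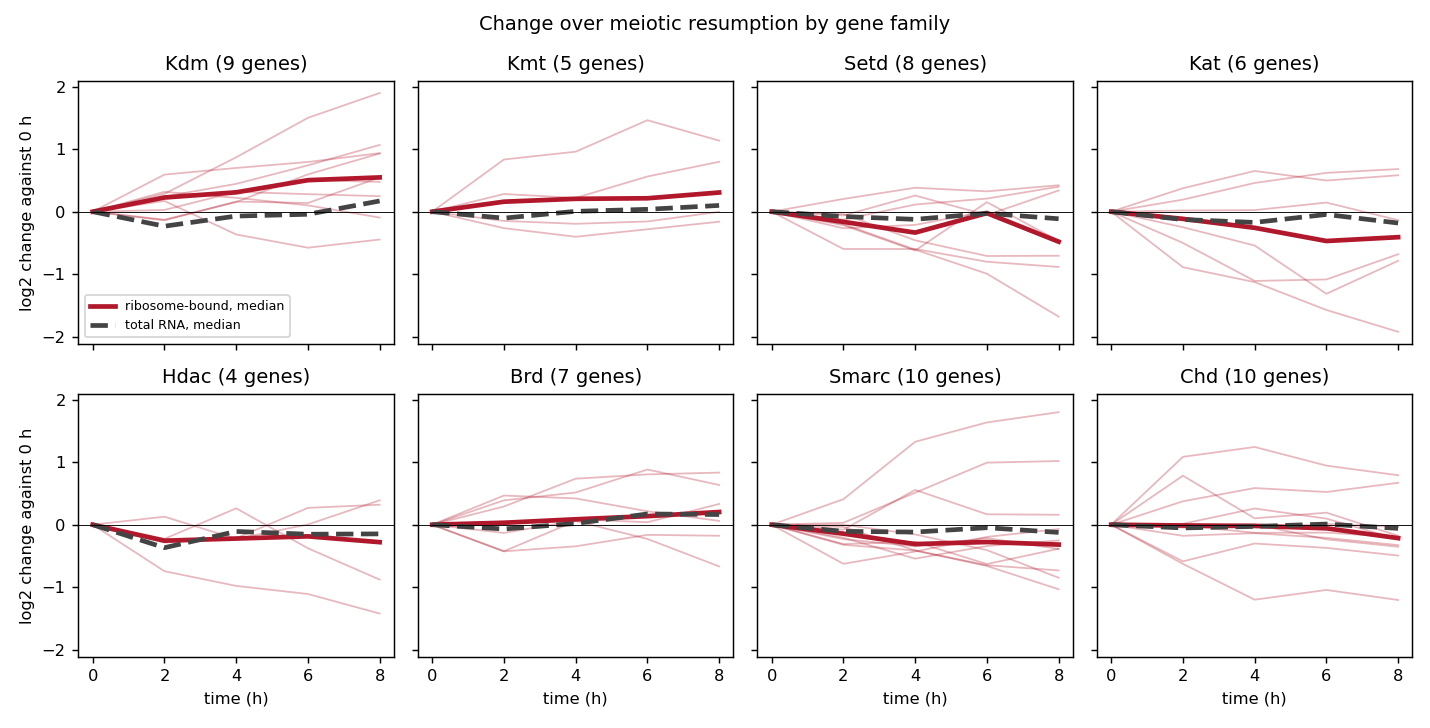
Log2 change against 0 h (y axis) over hours after release (x axis), a panel per family. Thin lines are single genes on ribosomes, the thick solid line their median, and the dashed line the family median in total RNA. The demethylase ribosome median climbs to 0.55 at 8 h, where its total RNA median is 0.17 after -0.23 at 2 h, and in the Kat, Smarc and Setd panels single genes fan out on both sides of 0.

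In total RNA 1 member was called, and a member not called may still have changed. At 2, 4 and 6 h no member passed in limma, against 0.0%, 0.0% and 0.202% of all 7917 genes. At an unadjusted p under 0.05 there were 1, 2 and 6 of 59 members, beside 2.85%, 4.38% and 7.74% of all genes. At 8 h 1 of 59 members passed, against 3.97% of all genes (3.02% lower). At an unadjusted p under 0.05 there were 11 members, beside 18.7% of all genes. That member was Setd4, at 106 and 91.4 scaled CPM at 0 h, 85.6 and 104 at 2 h, 77.3 and 101 at 4 h, 69.5 and 46.4 at 6 h and 17.3 and 21.7 at 8 h in total RNA. Both 8 h libraries lay far below the earlier 8, with a log2 change of -2.29 ± 0.24 (adjusted p = 2.64e-05). Total Hdac2 was also lower, at 59.3 and 57.6 scaled CPM at 8 h, against 96.2 and 83.7 at 0 h, without overlap but short of the threshold (log2 change -0.61 ± 0.19, adjusted p = 0.0783). Leaving out either 8 h library of total RNA added calls downward: Smarcb1 without replicate 1, Kat6b and Kdm3b without replicate 2.

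Whether the ribosome-bound change exceeded that in total RNA was asked with an interaction term between RNA kind and time, for genes listed in both tables. The tables were normalised separately. At 8 h 10 of 58 members passed, 5 with a higher and 5 with a lower change on ribosomes than in total RNA. Of all genes 21.0% passed, 11.6% with a higher and 9.43% with a lower change. Kdm6a in total RNA was at 700.0 and 722 scaled CPM at 8 h, against 586 and 668 at 0 h, so its ribosome-bound change went 1.71 ± 0.19 beyond it (adjusted p = 1.01e-06). Smarcad1 had 88.0 and 96.9 scaled CPM at 8 h, against 81.3 and 78.8 at 0 h in total RNA and a difference of 1.59 ± 0.25 (adjusted p = 6.25e-05). Their log2 changes in total RNA were 0.19 and 0.20, neither called. Chd1 had 199 and 185 scaled CPM at 8 h, against 196 and 199.7 at 0 h in total RNA and a difference of 0.71 ± 0.20, which was 0.35 and not called with the length and GC correction.

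Kdm3b and Kat6b differed in sign between the 2 kinds of RNA. Kdm3b had 26.5 and 54.3 scaled CPM at 8 h, against 71.1 and 66.1 at 0 h in total RNA, while it was higher on ribosomes, and the difference was 1.77 ± 0.41 (adjusted p = 0.00294). Kat6b had 272 and 347 scaled CPM at 8 h, against 461 and 416 at 0 h in total RNA, and the difference was 1.19 ± 0.24 (adjusted p = 0.00081). Kdm4a went the opposite way, with 75.0 and 71.4 scaled CPM at 8 h, against 47.7 and 53.7 at 0 h in total RNA and a lower ribosome-bound value, a difference of -0.97 ± 0.33 (adjusted p = 0.0359). The Kdm4a call was lost in 10 of 16 alternative fits.

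On the lower side, Kat8 was at 92.4 and 96.5 scaled CPM at 8 h, against 114 and 84.2 at 0 h in total RNA, overlapping, and its difference was -1.87 ± 0.31 (adjusted p = 0.000121). Smarca4 was at 163 and 226 scaled CPM at 8 h, against 189 and 200.0 at 0 h, with a mean nearly equal at both times, and a difference of -1.01 ± 0.26 (adjusted p = 0.00668). Chd1l was at 38.4 and 29.4 scaled CPM at 8 h, against 33.9 and 25.7 at 0 h and its difference was -1.38 ± 0.48 (adjusted p = 0.0413). For Hdac2 the difference was -0.81 ± 0.26 (adjusted p = 0.0289), smaller than its ribosome-bound change, as total Hdac2 was lower too. The letters A and B taken as a replicate block left 7 of the 10 calls and ended those of Chd1l, Hdac2 and Kdm4a. Over all 16 alternative fits the difference lost its call in 9 for Chd1l and in 6 for Hdac2. Setd4 had no difference past the test (0.61 ± 0.43, adjusted p = 0.335), with its fall present in both kinds of RNA. Kdm1a (0.84 ± 0.34, adjusted p = 0.0814) and Smarca5 (0.45 ± 0.27, adjusted p = 0.254) rose on ribosomes but were not past the test of the difference. Total Smarca5 was also higher, at 197 and 170 scaled CPM at 8 h, against 129 and 118 at 0 h, without overlap but not called. Brd7, Kat5, Kat7, Kdm6b, Kdm7a, Kmt2e, Kmt5a, Setd3, Setdb1 and Smarcd2, called on ribosomes at 8 h, did not pass the test of the difference either.

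**Figure D4:**
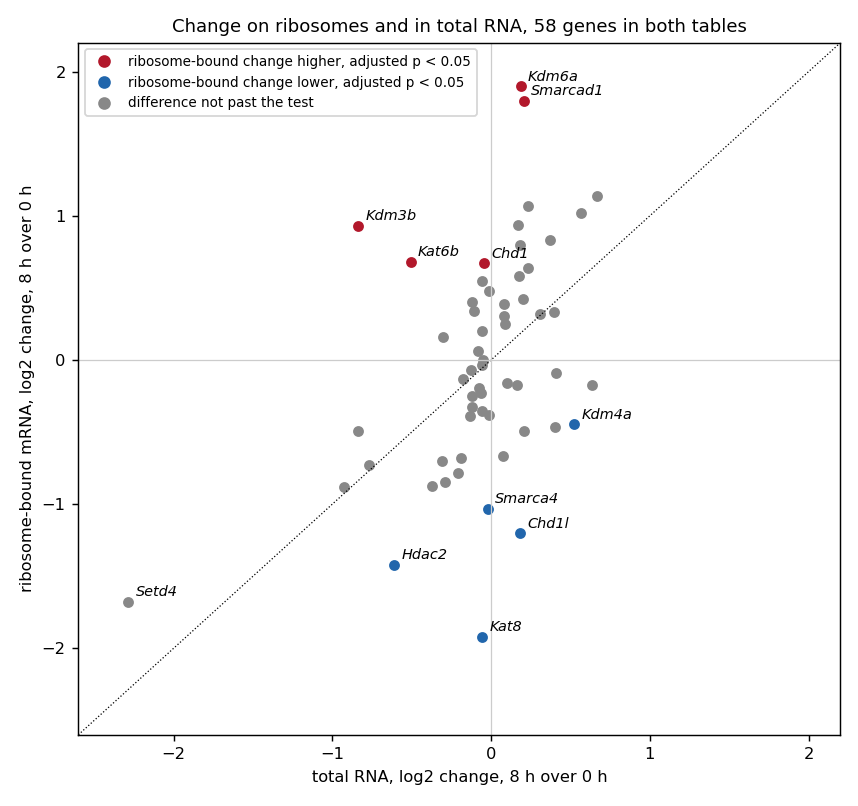
Log2 change at 8 h over 0 h in total RNA (x axis) and in ribosome-bound mRNA (y axis) for the 58 members in both tables; the dotted line marks equal change, and colour marks members whose difference passed an adjusted p of 0.05. Kdm6a, Smarcad1, Kat8 and Smarca4 lie near 0 on the x axis and far from it on the y axis, whereas Setd4 lies at -2.29 and -1.68.

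Levels between members were compared per kilobase of annotated transcript. On ribosomes at 0 h the highest were Kmt2c (118 scaled CPM per kilobase), Chd4 (84.3), Hdac2 (82.0) and Kat8 (77.9). At 8 h Kdm6a led at 186, against 49.8 at 0 h, followed by Kmt2c at 118. Kat8, among the highest at 0 h, was at 20.4 per kilobase at 8 h. On ribosomes 54 of the 59 members were at 10 scaled CPM or more in every library, with Chd3, Chd3os, Hdac4, Hdac6 and Kmt2e below that in at least 1. In total RNA 55 of 59 were, with Chd2, Chd3, Chd5 and Hdac6 below. Each listed gene reached 10 in at least 1 library, so genes of these families under that level are not described. Members are encoded by long transcripts, with a median of 5717 bases against 3299 for all genes of the table. Those that rose had a median of 6015.5 bases and those that fell 2450.5, beside 3711 and 2504.5 for all genes that rose and fell.

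Partner subunits and related enzymes outside these families were taken from 8 lists of 238 genes, 176 of them in the ribosome-bound table. At 8 h against 0 h, 55 of these rose and 21 fell, with a median log2 change of 0.25, beside 20.2% higher, 21.8% lower and a median of -0.06 for all genes of the table. Polycomb genes, which write and read H3K27 and H2AK119 marks, held 13 rises and 1 fall among 27 (median 0.51). They included the PRC2 core Ezh2 (0.49), Eed (1.13) and Suz12 (1.02) and the PRC1 genes Rnf2 (0.98) and Bmi1 (0.95), while the H2A deubiquitinase Bap1 was the fall (-1.30). The H3K27 methyltransferase core and the H3K27 demethylase Kdm6a were thus both among the rises. Rbbp7, a histone-binding protein of PRC2, NuRD and SIN3 kept in this list, had its largest rise (2.21). Partners of NuRD, SIN3 and CoREST, the complexes in which HDAC2 works, held 6 rises and 4 falls among 23 (median -0.41). Sap30 (1.52), Sin3a (1.04) and Rcor1 (0.59) were higher, and Mta1 (-1.14) and Sin3b (-0.86) lower.

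Partners of COMPASS, the H3K4 methyltransferase complexes, held 6 rises and 2 falls among 14 (median 0.44), with Dpy30 (1.61) and Cxxc1 (1.25) higher and Wdr82 (-1.04) and Ash2l (-0.71) lower. BAF and INO80 partners held 11 rises and 3 falls among 31 (median 0.35), including Ss18 (1.44) and Ino80 (1.14) upward and Arid1b (-0.54) downward. Acetyltransferase partners held 6 rises and 5 falls among 31 (median 0.11). The TIP60 complex subunits Ing3 (2.15) and Dmap1 (-2.33) moved in opposite directions. Other bromodomain and chromatin readers held 11 rises and 3 falls among 27 (median 0.24), other methyltransferases and demethylases 3 and 2 among 18 (median 0.31), and the sirtuins 1 fall among 6, Sirt5 (-1.09, a mitochondrial deacylase). These lists were drawn up with earlier results of these data known and describe direction only.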

How the data were processed

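Ribosome-bound mRNA and total RNA were sequenced from oocytes at 5 times, 2 libraries per group, 20 in all. The submitters' processing notes name Trimmomatic 0.36, FastQC, HISAT2 and SAMtools, then HTSeq, limma and edgeR, and the build mm10; whether poly(A) RNA was selected or strand was kept is not given in the sources used here. The authors deposited 1 table per kind of RNA, whose values are a signal in scaled CPM, not counts: library totals ran between 968768 and 1052767, and 10 libraries summed to more than the 1000000 that plain CPM allows. Each library's values were multiples of 1 step (100% of them, within 0.01 of a read), which gave the inferred depths. The names of the deposited tables carry a CPM of 10, and each listed gene reached 10 in at least 1 library; the number of libraries required is not given in the sources used here, and 0 columns of values were left unused.

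Members were matched on the symbol in each row name, and 1 gene with the Kdm prefix, the single values of 1 counted member and 1 sequence window are not reported here. Members, lists and tests were chosen with earlier results of these data known. All genes were fitted in limma 3.58.1 (R 4.3.3) on log2(value + 1), with all times of 1 kind of RNA in 1 model, empirical Bayes with a mean-variance trend, two-sided tests and Benjamini-Hochberg adjustment over all genes of a comparison, with a threshold of 0.05. The fit was run on simulated data drawn from its own model, which cannot show how it performs on real pairs of libraries. Fold changes on that scale understate the changes of low genes. Ribosome-bound change was set against total RNA by an interaction term over 7346 genes. Groups came from the titles, whose A and B became replicates 1 and 2. Same-letter libraries of different groups deviated from their group means with correlations of -0.107 to 0.115, so the letters were not taken to pair samples.

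Genes were named by a rule: a panel of 18 genes, of which 15 were listed, the 2 largest called changes each way per family at 8 h on ribosomes, and the 3 largest each way in other comparisons; the remaining members were added after their values were seen. Annotation came from GENCODE vM21 by gene ID: 8103 of 8114 IDs were found, 2264 of them under another version number, and 11 were not. All 60 members were found. One transcript per gene was used. Alternatives were pseudocounts of 0.5 and 5, a mean of at least 20, median centring, a replicate block, a fit of the compared groups alone, a length and GC correction (spline per library), a 3′ UTR window of 200 bases, and leaving out each library.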

Additional observations from a re-analysis of the deposited data

Results flagged for a closer look

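Members whose ribosome-bound and total RNA changes at 8 h against 0 h pointed in opposite directions, with no overlap of libraries in either kind and a difference past the interaction test, were Kdm3b (difference 1.77), Kat6b (1.19) and Kdm4a (-0.97). Kdm3b had log2 changes of 0.93 on ribosomes and -0.84 in total RNA, Kat6b 0.68 and -0.51, and Kdm4a -0.45 and 0.52. In total RNA the changes of Kdm3b (adjusted p = 0.113), Kat6b (0.0585) and Kdm4a (0.185) did not pass in limma by themselves. The ribosome-bound change of Kdm4a did not pass in limma either (adjusted p = 0.171). In total RNA the 8 h libraries of Kdm3b were themselves far apart, at 26.5 and 54.3 scaled CPM, against 71.1 and 66.1 at 0 h. How many of all genes meet the same rule was not counted, and what set these opposite directions was not tested.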

How the results depend on the processing

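The 8 h ribosome-bound count of 22 members ran between 19 and 25 in the alternative fits that kept all libraries. Counts over all genes also moved, both between these fits and in those that left out 1 library. Leaving out 1 library at a time gave 0 to 1 calls at 2 h (the 1 being Hdac2, without 0 h replicate 1), 5 to 10 at 4 h, 8 to 21 at 6 h and 14 to 23 at 8 h. In total RNA at 8 h it gave 1 to 3, and beyond total RNA 6 to 11, the 6 without ribosome-bound 8 h replicate 2. The fit of the compared groups alone left 4 calls at 4 h, beside 572 of all 7543 genes. The length and GC correction gave 1 call at 2 h (Hdac2) and 2 in total RNA at 8 h (Setd4 and Kat6b), the same 2 as the filter on a mean of at least 20. Median centring gave 25 calls at 8 h, 18 higher and 7 lower, beside 3164 of all 7543 genes, 1677 of them higher. Of the values of members named by the rule or called, 561 kept their direction and side of the threshold, 73 lost a call and 6 gained one. The sign of these turned 5 times, for genes not called: Chd4 with median centring (0.031), with the length and GC correction (0.085) and in 2 of the fits that leave out 1 library (range -0.23 to 0.16), and Kmt2b with the length and GC correction (0.091). Over all 59 members at 8 h on ribosomes, 12 turned sign in at least 1 fit, none called with either sign; Kmt2c (-0.17 to 0.16) did so with median centring. The cause was not tested. The replicate block gave 0, 10, 21 and 21 ribosome-bound calls at 2, 4, 6 and 8 h (Kat5 lost at 8 h), 1 in total RNA and 7 beyond total RNA. The 200-base window held a CPE in 21 members. Count tests with edgeR and DESeq2 were planned and not run, since the values used are scaled CPM. With 2 libraries a group, a missed call does not show that a gene kept its level.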
